A study of Homo sapiens with 18 samples.

Results

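The genes described here are 45 human genes that respond to type I interferon, taken as a list of symbols and looked up in a gene-level RNA-sequencing table of 20555 genes from subcutaneous mesothelioma xenografts. All 45 symbols were found, each in 1 row. The rule uses no measured value, but the list was drawn up with earlier results of these data known. MSTO-211H, a cell line established from a human mesothelioma, was used as the derivative MSTO-211H [sh-YAP1], which carried a stably integrated construct from which doxycycline switches on a short hairpin RNA against YAP1, the coactivator that drives TEAD-dependent transcription at the end of the Hippo pathway. The cells were grown in SCID mice, which lack mature lymphocytes but keep macrophages, fibroblasts and vessels of mouse origin. Each of the 18 tumors came from a different mouse. The 5 tumors of the 0h group came from mice given glucose in the drinking water and were taken before any doxycycline. The other groups, 4 tumors at 24h, 5 at 96h and 4 at 216h, are labelled with that many hours of doxycycline and glucose in the drinking water. For the 216h group the study's text also describes a period without doxycycline after 96h, so the treatment of these 4 tumors at the time of sampling is not settled. Every tumor, 0h included, carried the construct, and tumors with a control hairpin or without the construct were not analysed here, so depletion of YAP1 and exposure to doxycycline cannot be told apart. The labels give each time point a cage group of its own, so time and cage cannot be told apart either.

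Type I interferons are secreted proteins, chiefly the alpha subtypes and interferon beta, that bind the receptor pair IFNAR1 and IFNAR2. The kinases JAK1 and TYK2 then phosphorylate STAT proteins, among them STAT2, which joins IRF9 in the factor ISGF3, and ISGF3 binds the interferon-stimulated response element (ISRE) in the promoters of its targets. The products of these targets sense foreign RNA, block viral entry and translation, degrade RNA, and modify proteins with the ubiquitin-like protein ISG15. Many tissues and tumor cell lines hold a low level of these transcripts without infection.

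Promoter sequences are shown first because they carry the element through which the response is switched on. RefSeq promoters on GRCh38.p14, each running from 250 bases before to 50 bases after the annotated start, were matched to 37 of the 45 genes, DDX58 by its current symbol RIGI. IFIT2, IFITM2, MX2, OAS2, OASL, IRF7, USP18 and TRIM22 were not matched. The 4 genes at the top, IFI27, IFI6, IFIT1 and ISG15, were among the 5 largest falls of the set, IFIH1 is a gene with the element that was not called, and STAT2 is a component of ISGF3 without it. Each line holds the 160 bases just before the start, read 5′ to 3′ on the gene's strand, and capitals mark every match to the ISRE core GAAANNGAAA or to its reverse complement.
IFI27 (chr14:94110576-94110735, plus strand): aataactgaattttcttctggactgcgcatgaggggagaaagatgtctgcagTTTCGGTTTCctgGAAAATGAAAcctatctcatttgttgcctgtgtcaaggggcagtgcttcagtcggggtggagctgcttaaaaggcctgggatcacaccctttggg
IFI6 (chr1:27672193-27672352, minus strand): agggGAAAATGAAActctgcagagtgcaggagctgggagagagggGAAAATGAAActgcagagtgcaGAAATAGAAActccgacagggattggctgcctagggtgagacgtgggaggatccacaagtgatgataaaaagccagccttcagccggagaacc
IFIT1 (chr10:89392463-89392622, plus strand): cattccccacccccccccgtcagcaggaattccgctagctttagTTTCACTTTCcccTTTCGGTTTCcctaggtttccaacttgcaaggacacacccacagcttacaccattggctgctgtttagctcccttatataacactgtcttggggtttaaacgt
ISG15 (chr1:1013337-1013496, plus strand): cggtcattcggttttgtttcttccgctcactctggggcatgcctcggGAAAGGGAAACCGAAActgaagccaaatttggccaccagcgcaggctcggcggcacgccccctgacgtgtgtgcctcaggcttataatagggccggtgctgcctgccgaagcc
IFIH1 (chr2:162318685-162318844, minus strand): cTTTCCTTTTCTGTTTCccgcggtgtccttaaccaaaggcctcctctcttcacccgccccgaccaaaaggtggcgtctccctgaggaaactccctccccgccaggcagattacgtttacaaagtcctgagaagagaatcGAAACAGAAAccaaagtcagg
STAT2 (chr12:56360108-56360267, minus strand): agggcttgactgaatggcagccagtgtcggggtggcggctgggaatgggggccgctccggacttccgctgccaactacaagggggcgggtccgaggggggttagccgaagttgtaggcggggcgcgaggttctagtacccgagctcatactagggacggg

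Over the whole 300-base windows, counted on both strands and with overlapping matches allowed, 23 of the 37 matched genes (62.2%) held the ISRE core, against 996 of all 27305 promoters of the table (3.65%). The GAS core TTCNNNGAA, bound by pairs of STAT proteins and able to overlap an ISRE match, was held by 10 of the 37 (27%) and by 7.88% of all promoters. In IFI27 the ISRE matches began 108 and 95 bases before the start, in IFIT1 116 and 103, in IFI6 156, 115 and 93, and in ISG15 113 and 107, where they overlapped. IFITM1 held them 40 and 6 bases before its start. Among matched genes called lower at 216h against 0h, 10 of 11 held the core, as did 12 of the 23 that were tested without a call. IFIT2, MX2, OAS2 and OASL, also called lower, had no matched promoter, nor did IFITM2 and TRIM22, which were tested without a call. Elements that depart from the letters of the core, or lie outside the window, were not counted. These are counts of letters in 1 window per gene, given as a description.

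Levels are given as FPKM, fragments per kilobase of gene scaled to the mapped fragments of the sample, as deposited. Changes are differences in mean log2(FPKM + 1) between groups, from 1 limma model over all 18 tumors, and a gene was called at a Benjamini-Hochberg adjusted p under 0.05 over the 11379 genes that reached 1 FPKM in 4 or more tumors. On this scale the change of genes near 1 FPKM is understated. Depth is unknown, since no counts were analysed and low values did not fall on steps of whole reads. YAP1 itself stood at 7.71, 10.2, 6.68, 4.82 and 6.89 FPKM at 0h, 8.16, 4.60, 5.47 and 5.01 at 24h, 3.72, 3.39, 6.81, 4.37 and 5.58 at 96h and 6.42, 5.60, 8.85 and 7.84 at 216h. Its mean was lower at 24h and 96h, but it was not called against 0h, with differences of -0.27 ± 0.20 (SE, adjusted p = 0.742) at 24h, -0.52 ± 0.19 (SE, adjusted p = 0.221) at 96h and 0.00 ± 0.20 (SE, adjusted p = 0.999) at 216h. By RT-qPCR, another measure, the study's text reports clear knockdown of YAP1 mRNA in these xenografts at 24h and 96h. It also reports that part of this inhibition was left 6 days after doxycycline was removed. The number of genes listed at 0 separated the 0h from the 96h tumors and split the 24h and 216h tumors. It ran from 6000 to 6174 at 0h and from 4767 to 4873 at 96h, was 6491, 6203, 4832 and 4908 in the 24h tumors, and 5179, 6013, 5867 and 5593 in the 216h tumors. Split at the largest gap, between 5179 and 5593, the 0h tumors were all on the side with more such genes and the 96h tumors all on the other side. Of 9 markers of mesothelial and mesothelioma cells, 5 were tested, and PDPN was listed at 0 in every tumor while MSLN lay between 2.43 and 5.16 FPKM at 0h. KRT8, a keratin, ran from 152 to 214 FPKM at 0h, 106 to 132 at 96h and 95.2 to 131 at 216h, and its partner keratin KRT18 from 183 to 202, 64.7 to 92.6 and 64.1 to 102. Both were called lower at 96h, with differences of -0.56 (adjusted p = 0.00996) for KRT8 and -1.22 (adjusted p = 5.76e-05) for KRT18, and at 216h, with -0.79 (adjusted p = 0.000114) and -1.34 (adjusted p = 1.12e-05). The mesenchymal filament VIM was called higher at 96h (0.35, adjusted p = 0.0337) and not at 216h (-0.07, adjusted p = 0.579). MSLN was not called, with differences of -0.19 (adjusted p = 0.715) at 96h and -0.23 (adjusted p = 0.426) at 216h. Nor was CALB2, with 0.35 (adjusted p = 0.768) and -0.12 (adjusted p = 0.861). Of the markers tested, KRT8 and KRT18 thus fell in the same comparisons as the interferon response genes, while VIM rose at 96h. The part of these markers in the results was not tested.

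On the deposited scale, of the 40 interferon response genes tested, 8 were called lower than at 0h at 96h and 15 at 216h. On that scale 11 of the 40 lay above 0 at 216h without a call, and the 216h counts depended on scaling, as described below. IFI27, IFI6, ISG15, IFI44L and IFIT1 showed the 5 largest falls at 216h, each over 1 on the log2 scale, and 0 of the 3 transcription factors tested were called against 0h. In the fit over all tumors no member was called higher than at 0h. Of the 45, 40 passed the filter on low values, and all 40 would have passed on the tumors outside 0h alone. At 24h against 0h, 0 of the 40 were called in either direction with limma (background over all genes 0.00879% higher and 0.149% lower). At an unadjusted p under 0.05 there were 16, but the share of all genes at that threshold was not computed, so this count has no background beside it. At 96h, 8 (20%) were called lower and 0 higher (background 1.06% and 0.316%). At 216h, 15 (37.5%) were called lower and 0 higher, where 3.6% of all genes were called lower and 19.7% higher. These 3 comparisons share the 0h tumors, so their calls are not independent.

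The median difference of the 40 was -0.22 at 24h, -0.33 at 96h and -0.34 at 216h, beside -0.04, 0.02 and 0.17 for all genes tested. Of the 40, 34 (85%) lay below 0 at 24h, 34 at 96h and 29 (72.5%) at 216h, against 59.2%, 46.4% and 30.3% of all genes. The upward shift of all genes at 216h depended on scaling. With each tumor scaled to a common median the median of all genes was -0.04, that of the members -0.51, and 23 members were called lower with 0 higher, while the split over all genes went from 2246 higher and 410 lower to 991 and 1286. Quantile normalization gave 1037 and 980, and rescaling without the mitochondrially encoded genes 1542 and 722, with 22 and 18 members lower and 0 higher. Members above 0 at 216h numbered 11 as deposited, 5 with median scaling and 6 under each of the other 2 scalings. At 96h the split over all genes was 36 higher and 121 lower, against 72 and 131 with quantile normalization and 82 and 106 with that rescaling, and 9 and 8 members were lower. Under 1 or more of these scalings 8 further members were called lower at 216h, namely IFI35, EPSTI1, DDX60, PARP9, HERC6, IFIT5, UBE2L6 and IFITM2, and HERC5 was called lower at 96h under median scaling and quantile normalization. Complete separation was also counted. Every 24h tumor lay below every 0h tumor for 8 of the 40 members (background 2.33%), every 96h tumor for 12 (2.59%) and every 216h tumor for 13 (2.94%). For 0 members did every tumor of a later group lie above every 0h tumor, but the share of all genes in this direction was not computed.

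**Figure D1:**
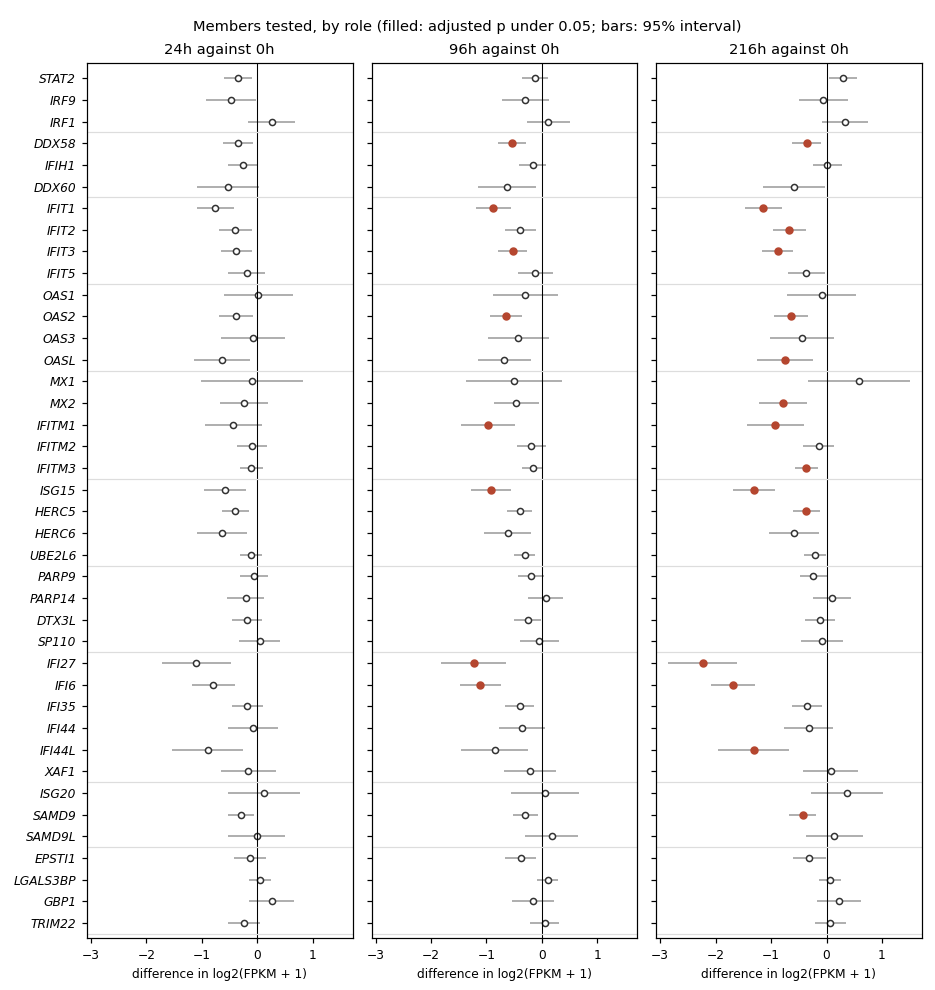
Difference in mean log2(FPKM + 1) against 0h of the 40 genes tested, grouped by role from transcription factors at the top to other effectors at the bottom, with 95% intervals; filled points have an adjusted p under 0.05. Filled points, 8 at 96h and 15 at 216h, all lie below 0, and IFI27 is farthest left in each of the 3 panels.

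Small interferon-induced proteins held the largest falls. IFI27 (chromosome 14, 94110733 to 94116698 on GRCh38), a mitochondrial protein widely used as a marker of interferon exposure, stood at 7.33, 12.0, 7.74, 8.38 and 9.56 FPKM at 0h, 1.98, 3.24, 4.97 and 4.97 at 24h, 3.99, 3.53, 3.80, 2.57 and 2.37 at 96h and 1.42, 0, 0.991 and 3.02 at 216h. All 13 later tumors lay below the lowest 0h tumor, and 216h replicate 2 was listed at 0. IFI27 fell by 1.23 ± 0.28 (SE, adjusted p = 0.0339) at 96h and fell by 2.23 ± 0.30 (SE, adjusted p = 7.17e-05) at 216h on the log2 scale, while at 24h the difference was -1.10 ± 0.30 (SE, adjusted p = 0.194) with 4 of 4 tumors below every 0h tumor. Without 216h replicate 2 the 216h difference was -1.88 (adjusted p = 0.000113). The 96h call was lost when any 1 of the 10 tumors compared was left out, with adjusted p between 0.0513 and 0.0924. IFI6 (chromosome 1, 27666061 to 27672218), a small membrane protein that counters apoptosis, was measured at 43.9, 68.1, 50.2, 44.1 and 42.2 FPKM at 0h, 21.7, 36.3, 28.7 and 26.3 at 24h, 25.4, 22.7, 19.1, 23.6 and 20.4 at 96h and 11.5, 11.0, 16.0 and 21.7 at 216h. No later tumor reached the lowest 0h value. It fell by 1.11 ± 0.18 (SE, adjusted p = 0.00228) at 96h and fell by 1.69 ± 0.19 (SE, adjusted p = 1.31e-05) at 216h, after a difference of -0.79 ± 0.19 (SE, adjusted p = 0.113) at 24h.

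IFI44L, a neighbour of IFI44 on chromosome 1 of uncertain biochemical role, stood at 3.98, 5.09, 3.80, 3.66 and 2.57 FPKM at 0h, 3.36, 0.305, 2.89 and 0.948 at 24h, 2.21, 1.51, 1.56, 0.977 and 2.11 at 96h and 1.06, 0.258, 1.97 and 0.732 at 216h. The 24h tumors were split, 2 within the 0h range and 2 far below it. Its fall was called at 216h (-1.31 ± 0.30 SE, adjusted p = 0.00469) but not at 96h, where the difference was -0.85 ± 0.29 (SE, adjusted p = 0.172) with 5 of 5 tumors below every 0h tumor. The others of this group were not called against 0h. IFI44 had a difference of -0.32 ± 0.21 (SE, adjusted p = 0.294) at 216h, IFI35 of -0.36 ± 0.13 (SE, adjusted p = 0.0562) and the pro-apoptotic XAF1 of 0.07 ± 0.24 (SE, adjusted p = 0.858). Of the 6 genes of this group, 2 were called lower at 96h and 3 at 216h.

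**Figure D2:**
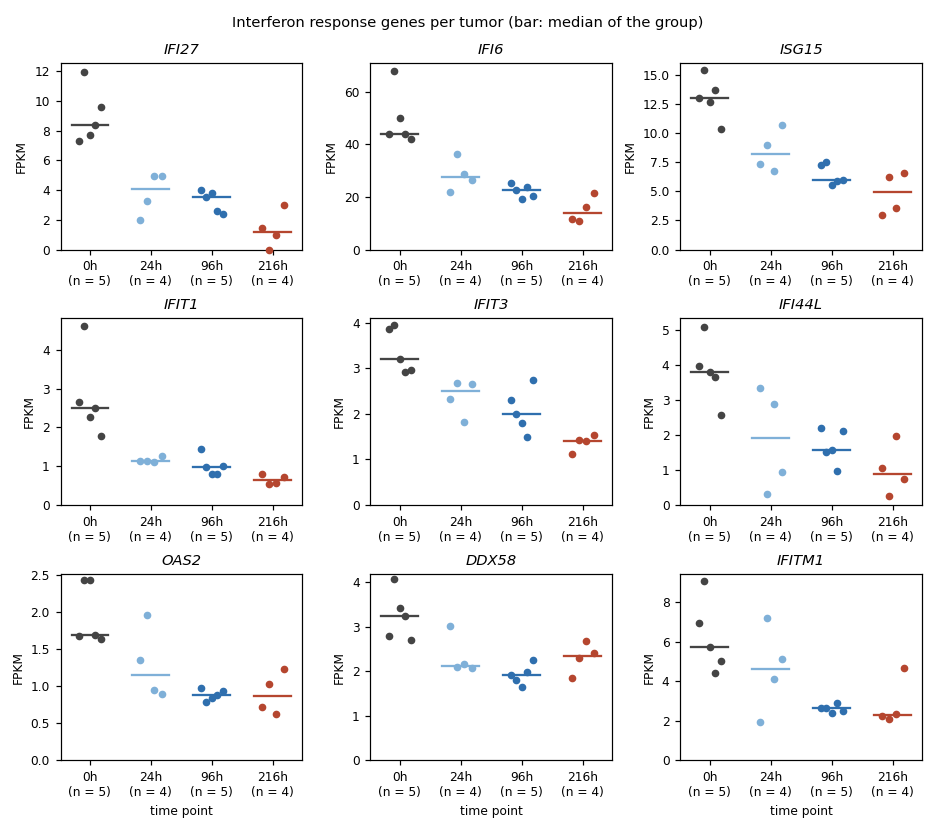
FPKM of 9 called genes in each tumor (points) with the median of each group (bars); vertical axes start at 0 and differ between panels. For IFI27 and IFI6 all points after 0h lie below the 0h points, whereas IFITM1 and OAS2 have 24h points within the 0h range.

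In the ISG15 conjugation system 1 of 4 genes tested was called lower at 96h and 2 at 216h. ISG15 (chromosome 1, 1001138 to 1014541), the ubiquitin-like modifier, was at 13.0, 15.4, 12.7, 13.7 and 10.3 FPKM at 0h, 7.38, 8.95, 6.73 and 10.7 at 24h, 7.29, 7.49, 5.56, 5.90 and 5.94 at 96h and 2.98, 6.21, 3.59 and 6.54 at 216h. At 96h and 216h its highest tumor lay below the lowest 0h tumor, and at 24h this held for 3 of 4 tumors. It fell by 0.91 ± 0.17 (SE, adjusted p = 0.0107) at 96h and fell by 1.31 ± 0.18 (SE, adjusted p = 0.000103) at 216h, with a difference of -0.58 ± 0.18 (SE, adjusted p = 0.305) at 24h. HERC5, the ligase that attaches ISG15 to new proteins, was at 1.56, 2.36, 2.06, 1.44 and 1.80 FPKM at 0h, 1.11, 1.05, 1.21 and 1.19 at 24h, 1.24, 1.02, 0.939, 1.12 and 1.42 at 96h and 1.29, 0.919, 1.31 and 1.26 at 216h. Its 13 later tumors were all below the lowest 0h tumor, and the fall was called at 216h (-0.37 ± 0.12 SE, adjusted p = 0.0283). HERC6 was below every 0h tumor in 4 of 4 tumors at 24h and had a difference of -0.59 ± 0.21 (SE, adjusted p = 0.0525) at 216h. UBE2L6, the conjugating enzyme and the most abundant of these genes, ran from 27.5 to 37.5 FPKM at 0h and from 23.6 to 30.3 at 216h, with a difference of -0.21 ± 0.10 (SE, adjusted p = 0.114). USP18, which removes ISG15 and restrains the receptor, stayed under 1 FPKM in every tumor and was not tested. It is also uncertain, since 28.8% of its 31-base stretches occur in the paralog USP41. Its values were 0.245 to 0.459 at 0h, 0.200 to 0.241 at 24h, 0.154 to 0.253 at 96h and 0.210 to 0.593 at 216h.

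Genes of the IFIT family, which bind viral RNA and block its translation, lie together on chromosome 10. IFIT1 (89392546 to 89406486) was at 2.65, 4.61, 2.28, 2.49 and 1.78 FPKM at 0h, 1.14, 1.14, 1.11 and 1.25 at 24h, 1.44, 0.969, 0.799, 0.789 and 1.01 at 96h and 0.804, 0.546, 0.572 and 0.721 at 216h. Here too all 13 later tumors were below the lowest 0h tumor. IFIT1 fell by 0.88 ± 0.15 (SE, adjusted p = 0.00484) at 96h and fell by 1.14 ± 0.16 (SE, adjusted p = 0.000103) at 216h. At 24h it narrowly missed the threshold (-0.76 ± 0.16 SE, adjusted p = 0.0563), and it passed with an adjusted p of 0.0448 when 0h replicate 5 was left out, the 1 member for which this happened at 24h. IFIT3, which stabilises IFIT1, stood at 3.87, 3.95, 3.21, 2.92 and 2.96 FPKM at 0h, 2.33, 2.67, 1.82 and 2.66 at 24h, 2.30, 1.99, 1.79, 1.49 and 2.74 at 96h and 1.13, 1.42, 1.40 and 1.54 at 216h. Its groups did not overlap with 0h at any time, and it fell by 0.52 ± 0.12 (SE, adjusted p = 0.0434) at 96h and fell by 0.88 ± 0.13 (SE, adjusted p = 0.000178) at 216h. IFIT2 was at 2.56, 3.48, 2.50, 2.19 and 1.87 FPKM at 0h, 1.24, 2.30, 1.62 and 1.53 at 24h, 1.88, 1.82, 1.51, 1.36 and 1.76 at 96h and 0.960, 1.13, 1.11 and 1.58 at 216h, and its fall was called at 216h (-0.67 ± 0.14 SE, adjusted p = 0.00253). IFIT5 was not called (-0.36 ± 0.16 SE, adjusted p = 0.108 at 216h). Of the 4 genes, 2 were called lower at 96h and 3 at 216h.

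OAS enzymes make 2′-5′-linked oligoadenylates that activate RNase L. Of the 4 genes, 1 was called lower at 96h and 2 at 216h, the same 2 under the 3 other scalings. OAS2 was at 1.68, 2.42, 2.42, 1.69 and 1.64 FPKM at 0h, 1.35, 1.97, 0.946 and 0.887 at 24h, 0.971, 0.782, 0.840, 0.879 and 0.933 at 96h and 0.715, 1.03, 0.623 and 1.23 at 216h, with every 96h and 216h tumor below every 0h tumor, and fell by 0.65 ± 0.14 (SE, adjusted p = 0.0222) at 96h and fell by 0.65 ± 0.15 (SE, adjusted p = 0.00397) at 216h. OASL, a family member without the enzyme activity, was at 1.60, 2.87, 3.02, 2.90 and 2.19 FPKM at 0h, 1.03, 1.17, 1.39 and 1.33 at 24h, 0.876, 1.28, 1.45, 1.48 and 0.854 at 96h and 0.398, 0.577, 0.974 and 3.22 at 216h. At 216h replicate 4 exceeded all 0h tumors and the other 3 tumors were below them. OASL fell by 0.75 ± 0.24 (SE, adjusted p = 0.0305) at 216h. OAS1 was higher in level and spread widely, at 15.8, 14.7, 19.7, 7.91 and 7.67 FPKM at 0h, 9.10, 16.6, 16.9 and 9.47 at 24h, 11.0, 5.46, 11.1, 10.2 and 13.3 at 96h and 7.35, 10.6, 16.8 and 13.5 at 216h, with overlapping groups and a difference of -0.09 ± 0.30 (SE, adjusted p = 0.862). OAS3 also overlapped (-0.44 ± 0.28 SE, adjusted p = 0.266). Whether OAS2 and OAS1 differ from each other in their change was not tested.

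Of 5 MX and membrane restriction genes tested, 1 was called lower at 96h and 3 at 216h. IFITM1, which blocks fusion of viral and cell membranes, was at 6.94, 9.08, 5.72, 4.39 and 5.01 FPKM at 0h, 1.93, 7.18, 4.14 and 5.12 at 24h, 2.62, 2.66, 2.37, 2.89 and 2.49 at 96h and 2.26, 2.11, 2.32 and 4.65 at 216h. At 24h 2 tumors were within the 0h range and 2 below it, all 5 tumors at 96h were below it, and at 216h replicate 4 stood apart from the others and within the 0h range. IFITM1 fell by 0.97 ± 0.23 (SE, adjusted p = 0.0443) at 96h and fell by 0.92 ± 0.25 (SE, adjusted p = 0.011) at 216h. IFITM3 had the highest level of all members, from 222 to 253 FPKM at 0h, 193 to 241 at 24h, 192 to 241 at 96h and 156 to 213 at 216h. Its fall was small and called at 216h (-0.36 ± 0.10 SE, adjusted p = 0.0112), with 4 of 4 tumors below every 0h tumor. IFITM2, at 113 to 141 FPKM at 0h, was not called (-0.14 ± 0.13 SE, adjusted p = 0.467), but was lower under median scaling. These 3 values are not fully separable, because in GENCODE 29 the IFITM2 gene overlaps IFITM1 on the same strand, and 31% of the 31-base stretches of IFITM1 transcripts occur in IFITM2 and 23.9% of those of IFITM3. MX2, which acts at the nuclear pore, was at 4.17, 5.41, 3.86, 6.37 and 4.74 FPKM at 0h, 5.46, 6.02, 2.29 and 3.09 at 24h, 3.21, 3.64, 4.33, 2.39 and 2.94 at 96h and 2.12, 1.81, 3.02 and 2.82 at 216h and fell by 0.78 ± 0.21 (SE, adjusted p = 0.011) at 216h. MX1, a dynamin-like GTPase, varied widely within groups, from 0.0747 to 4.69 FPKM at 0h, 0.307 to 3.27 at 24h, 0.132 to 0.848 at 96h and 0.749 to 6.27 at 216h, and was not called (0.58 ± 0.44 SE, adjusted p = 0.364). BST2 (tetherin) was listed at 0 in 4 tumors and not tested.

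Of the cytosolic RNA sensors, 1 of 3 was called. DDX58 (RIG-I), which recognises RNA with a triphosphate end, was at 2.80, 4.07, 3.42, 3.24 and 2.70 FPKM at 0h, 3.02, 2.10, 2.16 and 2.07 at 24h, 1.91, 1.80, 1.64, 1.99 and 2.25 at 96h and 1.85, 2.30, 2.69 and 2.40 at 216h. At 96h and 216h all tumors were below the lowest 0h tumor, and DDX58 fell by 0.54 ± 0.12 (SE, adjusted p = 0.0287) at 96h and fell by 0.36 ± 0.13 (SE, adjusted p = 0.047) at 216h. The 216h call was close to the threshold and was lost in 6 of the 9 fits that left out 1 tumor of these groups. IFIH1 (MDA5), the sensor of long double-stranded RNA, was at 1.35, 1.59, 1.57, 1.46 and 1.55 FPKM at 0h, 1.13, 1.12, 1.12 and 0.956 at 24h, 1.19, 1.26, 1.37, 1.28 and 1.07 at 96h and 1.27, 0.949, 1.94 and 2.10 at 216h. It was below every 0h tumor in 4 of 4 tumors at 24h, and the 216h tumors were split, 2 below and 2 above the whole 0h range. Its differences were -0.26 ± 0.12 (SE, adjusted p = 0.537) at 24h and 0.01 ± 0.12 (SE, adjusted p = 0.961) at 216h. DDX60 was not called (-0.58 ± 0.27 SE, adjusted p = 0.123 at 216h).

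None of the 3 transcription factors tested was called against 0h by limma in the fit over all tumors. STAT2 was at 23.5, 26.0, 23.4, 18.7 and 24.4 FPKM at 0h, 18.8, 17.2, 20.0 and 16.0 at 24h, 25.8, 19.2, 21.1, 18.3 and 22.0 at 96h and 30.2, 23.5, 28.2 and 33.1 at 216h. Its 24h tumors were low and 3 of the 4 tumors at 216h were above every 0h tumor, with differences of -0.35 ± 0.12 (SE, adjusted p = 0.356) at 24h, -0.12 ± 0.11 (SE, adjusted p = 0.712) at 96h and 0.29 ± 0.12 (SE, adjusted p = 0.0891) at 216h. With 216h replicate 2 left out, STAT2 was called higher at 216h (adjusted p = 0.0371), the 1 member called higher against 0h in any fit that left out a tumor. IRF9, the DNA-binding part of ISGF3, was at 15.7, 21.4, 12.9, 8.61 and 16.4 FPKM at 0h, 6.37, 12.4, 11.3 and 11.5 at 24h, 14.0, 12.8, 8.34, 12.3 and 11.0 at 96h and 14.9, 14.7, 13.4 and 12.5 at 216h with overlapping groups and a difference of -0.06 ± 0.21 (SE, adjusted p = 0.88) at 216h. IRF9 is uncertain, since 45.2% of its 31-base stretches occur in the overlapping gene AL136295.5. IRF1, an activator that also answers to interferon gamma, was at 6.67, 4.55, 5.19, 6.04 and 5.70 FPKM at 0h, 5.47, 12.5, 5.68 and 5.59 at 24h, 5.88, 7.10, 6.64, 6.70 and 4.71 at 96h and 7.52, 9.58, 7.33 and 5.45 at 216h, with 24h replicate 2 apart from the rest of its group, and a difference of 0.34 ± 0.20 (SE, adjusted p = 0.229) at 216h. IRF7, which amplifies interferon alpha production, did not reach 1 FPKM in any tumor and was not tested. Its values ran from 0.343 to 0.712 FPKM at 0h, 0.289 to 0.705 at 24h, 0.137 to 0.313 at 96h and 0.125 to 0.640 at 216h, with the 96h tumors below the 0h range and the other groups overlapping it.

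Further members are mostly effectors with other or unclear roles. SAMD9, an inhibitor of translation, was at 5.57, 6.92, 6.19, 5.63 and 6.83 FPKM at 0h, 4.25, 5.65, 4.71 and 4.99 at 24h, 5.58, 4.45, 4.48, 4.48 and 5.42 at 96h and 3.85, 5.34, 4.12 and 4.19 at 216h and fell by 0.43 ± 0.11 (SE, adjusted p = 0.011) at 216h, with 4 of 4 tumors below every 0h tumor. Its paralog SAMD9L was not called (0.14 ± 0.25 SE, adjusted p = 0.72), nor was the exonuclease ISG20, whose 216h tumors were split between 10.3, 2.30, 13.0 and 3.28 FPKM. Of the ADP-ribosyltransferase group 0 of 4 were called: PARP9 had a difference of -0.24 ± 0.12 (SE, adjusted p = 0.157) at 216h, its partner ligase DTX3L of -0.12 ± 0.13 (SE, adjusted p = 0.533), PARP14 of 0.10 ± 0.16 (SE, adjusted p = 0.711) and the nuclear body protein SP110 of -0.08 ± 0.18 (SE, adjusted p = 0.791). PARP9 and DTX3L overlap head to head on opposite strands, and whether the counting used strand is not given in the sources used here. Likewise 0 of 4 were called among the secreted LGALS3BP (0.07 ± 0.09 SE, adjusted p = 0.658), the GTPase GBP1 (0.22 ± 0.19 SE, adjusted p = 0.425), which shares 10.7% of its 31-base stretches with GBP1P1, the antiviral ligase TRIM22, which overlaps TRIM5 on the opposite strand (0.07 ± 0.13 SE, adjusted p = 0.759) and EPSTI1 (-0.31 ± 0.14 SE, adjusted p = 0.118). For LGALS3BP the 95% interval of the 216h difference ran from -0.13 to 0.26, so a change the size of that of ISG15 lies outside it. CMPK2 and RSAD2 (viperin), overlapping neighbours on opposite strands, were not tested. RSAD2 was at 1.15, 0.710, 0.330, 1.33 and 0.238 FPKM at 0h, 0.302, 0.518, 0.174 and 0.204 at 24h, 0.209, 0.166, 0.138, 0.105 and 0.261 at 96h and 0.0582, 0.269, 0.582 and 1.14 at 216h. CMPK2 was under 1 FPKM throughout and listed at 0 in 1 tumor at 216h.

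**Figure D3:**
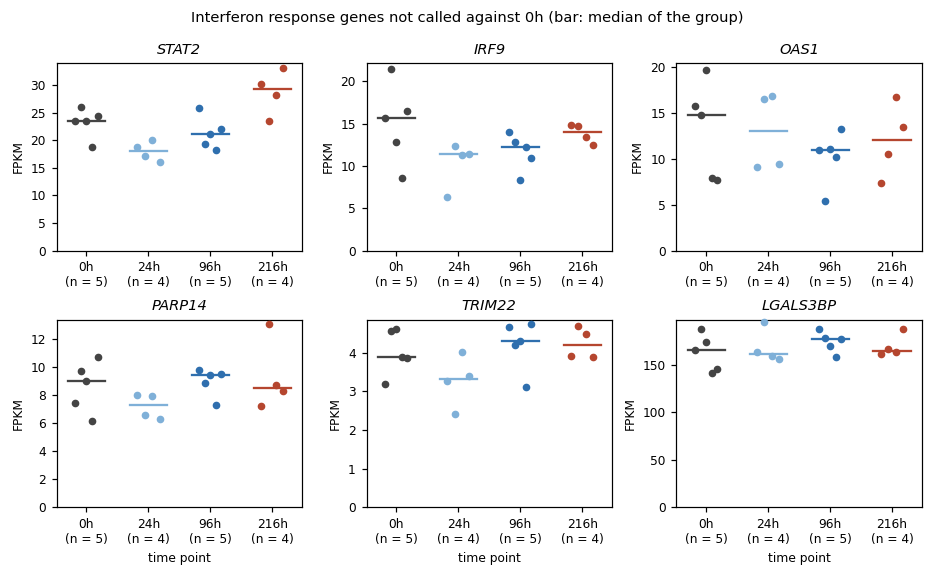
FPKM of 6 members not called against 0h in each tumor (points) with group medians (bars); vertical axes start at 0. In all 6 panels the later groups overlap with 0h, and the 216h points of STAT2 include 3 above every 0h point.

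Between the later groups few differences passed. At 216h against 96h, 1 of 40 members was called lower and 1 higher (background 0.747% lower and 10.3% higher). At an unadjusted p under 0.05 there were 6, with no share of all genes computed. The difference was -1.001 ± 0.30 (SE, adjusted p = 0.0362) for IFI27 and 0.42 ± 0.12 (SE, adjusted p = 0.0336) for STAT2. The split over all genes went from 1175 higher and 85 lower to 321 and 296 under median scaling, 378 and 314 under quantile normalization and 418 and 214 without the mitochondrially encoded genes. STAT2 lost its call under median scaling, quantile normalization and rescaling without the mitochondrially encoded genes, under each of which 0 members were called higher and 4 lower, namely IFI27, IFI6, IFIT3 and IFITM3. It was also lost without 96h replicate 2, 3 or 4 or 216h replicate 1, 3 or 4 (adjusted p between 0.0516 and 0.11). IFI27 lost its call without 96h replicate 1, 2, 3 or 4 or 216h replicate 2 or 3, with adjusted p between 0.0516 and 0.113, the latter without replicate 2, which was listed at 0. At 96h against 24h, 0 of 40 were called in either direction with limma (background 0% higher and 0.0439% lower). At an unadjusted p under 0.05 there were 3, again with no share of all genes computed. In this comparison the median of the members was -0.10 and that of all genes 0.06.

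With a term for the 2 sides of the split by genes listed at 0, 0 members were called at 96h and 13 were called lower at 216h. Within the tumors with more genes listed at 0 (5 at 0h and 3 at 216h), 9 were called lower at 216h. The share of all genes called was not computed for these 2 fits, so these counts have no background beside them. All 96h tumors were on 1 side and all 0h tumors on the other, so within-side values cannot be had for 96h. The 96h count was 8 and fell to 5 without 0h replicate 1 or 5, to 4 without 96h replicate 1, and to 3 without 0h replicate 2 or 3 or without 96h replicate 2, 3 or 4. At 216h the count stayed between 13 and 16 in the fits that left out 1 tumor of the groups compared. Shares of all genes called were not computed for the fits that left out a tumor. At 96h IFIT3 lost its call in 8 of 10 such fits, IFITM1 in 9, DDX58 in 6 and OAS2 in 5, and at 216h OASL lost it in 6 of 9 and HERC5 in 3. IFI6, IFIT1 and ISG15 kept their call at 96h in all 10, and IFI27, IFI6, ISG15, IFIT1, IFIT3, IFI44L, MX2, OAS2 and IFITM3 kept theirs at 216h in every alternative that tested them.

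Per tumor, the median shift of the members from the 0h mean, less that of all genes, was between -0.08 and 0.12 in the 0h tumors. It was -0.13, -0.19, -0.17 and -0.30 in the 24h tumors, -0.29, -0.22, -0.40, -0.42 and -0.40 in the 96h tumors and -0.49, -0.54, -0.51 and -0.39 in the 216h tumors. All 13 later tumors were below all 5 tumors at 0h. The shift is measured from the mean of these same 0h tumors, which places them around 0. Within 24h, the 2 tumors with fewer genes listed at 0, replicates 3 and 4, were at -0.17 and -0.30 and the other 2 at -0.13 and -0.19.

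**Figure D4:**
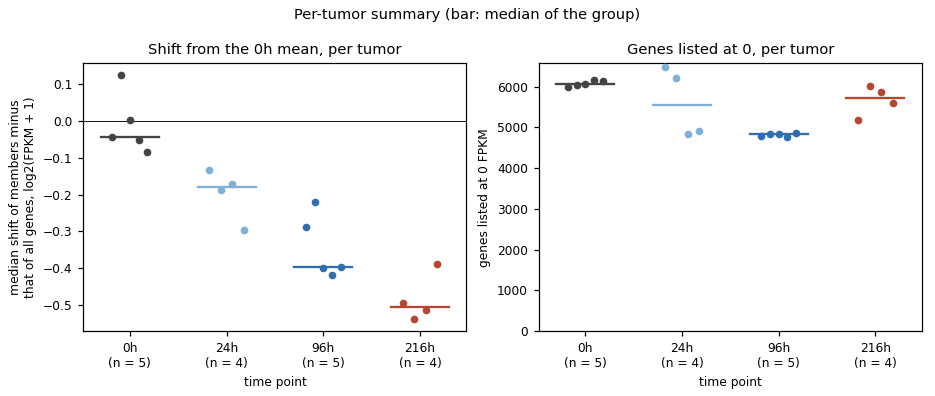
Left, median shift of the 40 members from the 0h mean minus that of all genes tested, on log2(FPKM + 1), per tumor. Right, number of genes listed at 0 FPKM per tumor. Points are tumors and bars group medians. On the left every later tumor lies below the 0h tumors, and on the right the 24h tumors fall into a high pair and a low pair.

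Interferon genes themselves were barely present. Of 21 ligand genes, 18, including IFNB1, were listed at 0 in all 18 tumors. IFNA2 and IFNL1 were above 0 in 1 tumor each, and IFNE, an epithelial interferon, was above 0 in 16 tumors. It was at 0.185, 0.170, 0, 0.192 and 0.1798 FPKM at 0h, 1.20, 0, 0.347 and 0.354 at 24h, 0.799, 0.356, 0.841, 0.519 and 0.586 at 96h and 0.586, 1.35, 0.625 and 0.289 at 216h. Every 96h and 216h tumor thus lay above every 0h tumor, the opposite direction to the members called. These values are near the floor, and the 0h and 96h tumors also differed in the number of genes listed at 0. How many of all genes separated upward in this way was not counted. None of the ligands passed the filter, so none was tested. Receptor and signalling genes were also listed. IFNAR1 was at 3.63, 6.89, 5.02, 4.94 and 2.74 FPKM at 0h, 2.03, 3.65, 3.48 and 3.98 at 24h, 4.53, 4.80, 4.02, 4.39 and 4.45 at 96h and 3.40, 3.78, 4.63 and 3.89 at 216h and had a difference of -0.16 ± 0.18 (SE, adjusted p = 0.572) at 216h. The 24h, 96h and 216h tumors overlapped with the 0h tumors. IFNAR2 had a difference of 0.22 ± 0.16 (SE, adjusted p = 0.329) and JAK1 of 0.33 ± 0.15 (SE, adjusted p = 0.126), and neither was called. Of 13 tested genes in this list of 15, 0 were called at 24h and 96h. At 216h 4 (30.8%) were called higher and 0 lower, beside 19.7% and 3.6% of all genes. Under median scaling 2 (15.4%) were higher, PTPN6 and SOCS3, and 1 (7.69%) lower, TYK2, beside 991 and 1286 of all 11379 genes. The 4 were the phosphatase PTPN6 (0.98 ± 0.25 SE, adjusted p = 0.0082), the feedback inhibitors SOCS3 (0.79 ± 0.12 SE, adjusted p = 0.000226) and SOCS1 (0.45 ± 0.14 SE, adjusted p = 0.0284) and STAT3 (0.58 ± 0.13 SE, adjusted p = 0.00361).

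In the list of nucleic acid sensing, 15 of 18 genes were tested, 0 were called at 24h and 96h, and at 216h 4 (26.7%) were called higher and 1 (6.67%) lower, beside the same 19.7% and 3.6%. Under median scaling 2 (13.3%) were higher, IRF5 and TLR7, and 2 (13.3%) lower, TRIM25 and IFI16. Among all 11379 genes tested, 991 were higher and 1286 lower under that scaling. IRF5, a factor of myeloid cells, was higher by 0.96 ± 0.14 (SE, adjusted p = 0.000113), the kinases TBK1 by 0.69 ± 0.23 (SE, adjusted p = 0.0384) and IKBKE by 0.53 ± 0.15 (SE, adjusted p = 0.0123), and the endosomal sensor TLR7 by 0.65 ± 0.14 (SE, adjusted p = 0.00296). TRIM25, the ligase that activates RIG-I, fell by 0.50 ± 0.17 (SE, adjusted p = 0.0354). Among 49 further interferon-stimulated genes 39 were tested. At 24h 0 were called, at 96h 2 (5.13%) were called lower and 0 higher, beside 1.06% and 0.316% of all genes. At 216h 4 (10.3%) were lower and 6 (15.4%) higher, the latter below the 19.7% of all genes. Under median scaling 7 (17.9%) were lower and 3 (7.69%) higher, beside the same 1286 and 991 of all 11379 genes. GBP2, IRF2 and IRF8 were still higher and CCL5, PLSCR1, WARS and ZC3HAV1 still lower. With the term for the split by genes listed at 0, 0 were called at 96h. The share of all genes called was not computed for that fit. The largest fall was that of CCL5, a chemokine that attracts T cells and monocytes, at 17.5, 17.9, 12.6, 16.0 and 10.7 FPKM at 0h, 9.04, 12.9, 7.21 and 7.51 at 24h, 6.78, 7.77, 4.62, 7.37 and 5.59 at 96h and 2.46, 2.36, 3.93 and 2.73 at 216h. All 96h and 216h tumors were below the 0h tumors, and CCL5 fell by 1.10 ± 0.18 (SE, adjusted p = 0.00266) at 96h and fell by 2.03 ± 0.19 (SE, adjusted p = 4.37e-06) at 216h. PLSCR1, a lipid scramblase, fell by 0.50 ± 0.11 (SE, adjusted p = 0.0239) at 96h and fell by 0.52 ± 0.11 (SE, adjusted p = 0.00302) at 216h. WARS and ZC3HAV1 were the other 2 lower at 216h (-0.49 and -0.33). IRF8, a factor of macrophages and dendritic cells, was higher by 1.04 ± 0.24 (SE, adjusted p = 0.00448), IRF2 by 0.91 ± 0.15 (SE, adjusted p = 0.000354), GBP2 by 0.51 ± 0.12 (SE, adjusted p = 0.00413), the proteasome activator PSME1 by 0.49 ± 0.11 (SE, adjusted p = 0.00476) and NLRC5, which induces MHC class I genes, by 0.43 ± 0.14 (SE, adjusted p = 0.0295). SAMHD1 was the sixth (0.35).

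**Figure D5:**
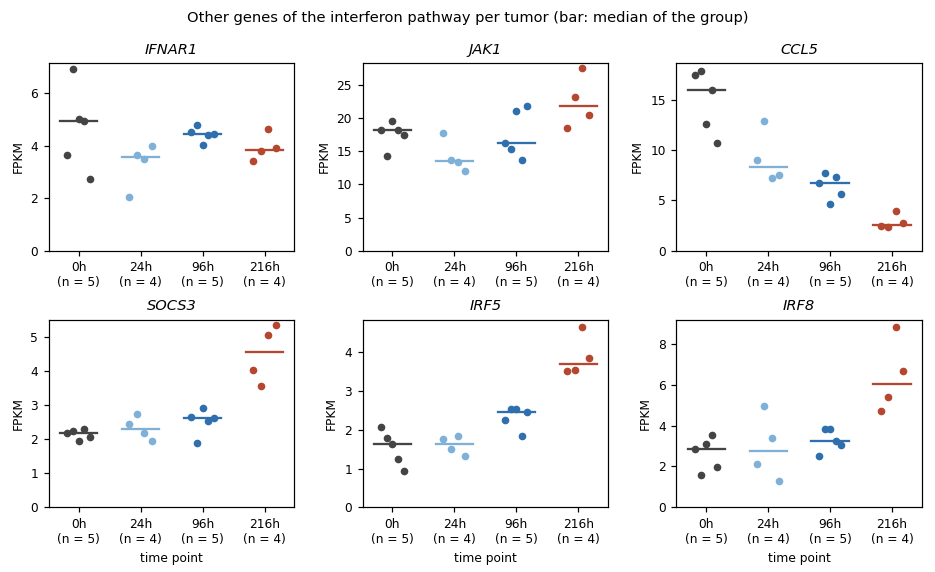
FPKM of 6 genes of the interferon pathway outside the 45, per tumor (points) with group medians (bars); vertical axes start at 0. CCL5 falls from 10.7 to 17.9 FPKM at 0h to 2.36 to 3.93 at 216h, in IFNAR1 and JAK1 each later group overlaps with 0h, and SOCS3, IRF5 and IRF8 are higher at 216h.

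Human genes used as markers of leukocytes and fibroblasts were also called at 216h. Whether their reads came from host or tumor cells was not tested. The summed level of 16 leukocyte markers was 62.4 to 85.3 FPKM at 0h, 60.8 to 103 at 24h, 75.2 to 94.2 at 96h and 107 to 159 at 216h. Of the 13 tested, 8 (61.5%) were called higher and 1 (7.69%), CD68, lower at 216h, beside 19.7% and 3.6% of all genes. The 9 fibroblast markers summed to 1373 to 1969 FPKM at 0h, 963 to 1734 at 24h, 1126 to 2251 at 96h and 3645 to 4345 at 216h. Of them 6 (66.7%) were called higher and 1 (11.1%) lower at 216h, beside the same shares of all genes. Under quantile normalization 4 leukocyte markers (30.8%) were higher, beside 1037 of all 11379 genes. At 96h and at 24h 0 genes of these 2 lists were called on the deposited scale, while the keratins and VIM were called at 96h. The fibroblast marker THY1 had a 96h difference of -0.37 (adjusted p = 0.119), with 5 of 5 tumors below every 0h tumor. Under median scaling THY1 was called lower at 96h. Of 5 endothelial markers tested, 1 (20%), CDH5, was called higher at 216h (0.72, adjusted p = 0.00883), near the 19.7% of all genes. At 96h 0 of them were called, and of 5 muscle markers tested 0 were called. The NK markers NKG7, NCR1 and KLRB1 were listed at 0 in every tumor, and 6 lymphocyte markers summed to at most 0.474 FPKM, with CD3D and MS4A1 at 0 throughout. How reads of the mouse host were treated is not given in the sources used here. In bulk tumors fewer cells that express a gene and less RNA per cell cannot be told apart, and the part of host cells in the changes of the interferon response genes was not tested.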

How the data were processed

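RNA of 18 xenograft tumors was made into exome-capture libraries and sequenced in paired-end reads. The authors deposited 1 table of FPKM per gene and tumor. STAR and GRCh38 are named in the submitters' processing notes, and the quantifier, annotation release, strand setting and treatment of mouse reads are not given in the sources used here. The 13 mitochondrially encoded genes made up 74.9% to 84.8% of the summed FPKM of a tumor. This share was 74.9% to 76.0% in the 216h tumors and 77.6% to 84.8% in all others. The summed FPKM of the 216h tumors, 907662 to 927546, also lay below that of every other tumor, the lowest of which was 948796. The 4 empty cells were read as 0, and an exact 0 is described as listed at 0. Groups came from the labels' time points. Replicate numbers follow the order of the samples and pair nothing. No 2 tumors had identical values, and tumors of the same group correlated over genes with Pearson's r of 0.941 to 0.982. That the samples are separate mice comes from the labels' animal numbers.

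Python 3.11.15 (pandas 2.3.3, numpy 2.4.6, matplotlib 3.10.9) was used to read the table. Values were analysed as log2(FPKM + 1) with limma 3.58.1 (lmFit, eBayes with trend, two-sided) in R 4.3.3, all groups in 1 model, for the 11379 genes that reached 1 FPKM in 4 or more tumors, with Benjamini-Hochberg adjustment over all of them, separately for each of 5 comparisons. The fit was tested on simulated data with known changes. Depth is unknown, so no counting intervals were computed.

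The 45 genes and the lists of pathway and marker genes were chosen with earlier results of these data known. Genes named in the text were 20 members standing for their roles, up to 10 called members per comparison by size of change, YAP1, and in the other pathway lists IFNAR1, IFNAR2, IFNB1, JAK1, a gene not reported here, and up to 5 called genes each. WARS and ZC3HAV1, PSME1, NLRC5 and SAMHD1 were named after their values were seen. Alternatives were other samples, filters of none or 5 FPKM, a pseudocount of 0.1, 3 other scalings, eBayes without trend, the split by genes listed at 0, and leaving out each tumor. Scalings and the split were applied to the pathway and marker lists after seeing the data. Gene positions are those of the deposited table, whose starts count from 0, written from 1. For 34 of the 45 they equal GENCODE 29. Shared 31-base stretches were counted over GENCODE 29 transcripts.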

Additional observations from a re-analysis of the deposited data

Results flagged for a closer look

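For the 20 members that stand for their roles, each of 4 groups was checked for a tumor whose gap to the nearest of the others exceeded Dixon's 95% limit, which chance exceeds in about 1 in 20 groups. Of 80 groups, 8 did. In the 24h group IRF1 was at 12.5 FPKM in replicate 2, against 5.47 to 5.68 in the others. DDX58 was at 3.02 FPKM in 24h replicate 1, against 2.07 to 2.16, and DTX3L was at 1.96 in the same tumor, against 1.49 to 1.56. IFIH1 was low in 24h replicate 4 (0.956 FPKM, against 1.12 to 1.13), as was PARP9 (1.80, against 2.19 to 2.22). MX1 was low in 96h replicate 3, at 0.132 FPKM against 0.661 to 0.848. At 216h IFITM1 was at 4.65 FPKM in replicate 4, against 2.11 to 2.32, and DTX3L at 1.35 in replicate 3, against 1.90 to 1.92. Of the 8, 5 were in the 24h group.

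The change against 0h differed between 216h and 96h for 2 members, by limma's test of the 2 groups against each other. IFI27 was lower at 216h by a log2 difference of -1.001 (adjusted p = 0.0362, 3 of 4 tumors below every 96h tumor), and STAT2 was higher by 0.42 (adjusted p = 0.0336, 3 of 4 tumors above every 96h tumor). Each lost its call in 6 fits that left out 1 tumor and kept it in 3. STAT2 also lost its call under the 3 other scalings. Neither was called with the covariate for genes at 0 or with only the 2 groups fitted.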

How the results depend on the processing

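No paired analysis was possible because the labels number no replicates and each mouse gave 1 tumor. The 25 calls of single members were repeated in 461 alternative fits. In 360 the call was kept, in 101 it was lost and in 0 the direction turned. The covariate for genes at 0 gave 0 members lower at 96h against 0h, and 0 higher and 0 lower at 216h against 96h, where fitting only the 2 groups compared also gave 0 and 0. Shares of all genes called were not computed for these fits, nor for the fits below other than the 3 other scalings. Without a filter 5 members were lower at 96h and 0 at 216h against 96h, and the members' median minus that of all genes was -0.32 at 216h and -0.048 at 216h against 96h, compared with -0.51 and -0.13. A filter of 5 FPKM left 21 members, of which 4 were lower at 96h, 7 at 216h and 2 at 216h against 96h, with medians of -0.069 at 24h and -0.37 at 216h, compared with -0.18 and -0.51. A pseudocount of 0.1 gave 0 lower at 216h against 96h. Quantile normalization, median scaling and rescaling without mitochondrially encoded genes each gave 0 higher and 4 lower at 216h against 96h, and median scaling 23 lower at 216h. Within tumors with more genes at 0, 9 were lower at 216h. Leaving out 1 tumor gave 3 to 7 members lower at 96h, 0 to 1 lower at 24h, 0 to 1 higher at 216h, and 0 to 1 higher and 0 to 2 lower at 216h against 96h. The causes were not tested, except that the stricter filter and the smaller sets tested fewer genes or tumors. Depth is unknown, and 5 members were too low to test.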
